A study of Homo sapiens with 2 samples.

Results

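The translation initiation factor genes described here are the protein-coding genes of the GENCODE annotation of hg19 whose symbols begin with EIF. They were chosen by their symbols, and 56 of 20136 protein-coding genes carried such a symbol. SOX9 binding at their promoters was measured by ChIP-seq in HT-29 cells, an established human colorectal cancer line, with 1 SOX9 ChIP library and 1 input library of sheared chromatin without antibody selection. Both libraries came from the same untreated line, and each held 12320108 tags, a tag being a read aligned to a unique place. With 1 library of each kind no value has a replicate error, and no difference below was tested. A promoter peak is a SOX9 peak of the authors' list whose summit lay within 1 kb of a transcription start site (TSS) of the gene, and where several qualified, the peak with the most tags was taken.

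Translation initiation joins the small ribosomal subunit, the initiator tRNA and an mRNA at the start codon. eIF2 brings the initiator tRNA, eIF2B recharges eIF2 with GTP, and the eIF2 alpha kinases lower the supply of active eIF2 under stress. eIF3 holds the complex together, and the eIF4 factors bind the cap of the mRNA and unwind its leader. eIF1, eIF1A and eIF5 act in the choice of the start codon, and eIF5B helps the large subunit to join. The binding proteins of eIF4E link this step to growth signalling through mTOR, which is often raised in colorectal tumours.

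The sequences at the summits show what lay under the SOX9 signal of the leading EIF promoters. They are from hg19, read 5′ to 3′ on the strand of the EIF gene, with capitals for matches to the motifs searched. CCAAT is the NF-Y core. Motif 1 is CCAAT with 2 purines before it and C or G and then a purine after it, so every Motif 1 match is also a CCAAT match. The ETS core is CCGGAA. The E-box is CACGTG and reads the same on both strands. The GC box is GGGCGG. Motif 2, a SOX core, is NNCAANG with A or T at each N. The CRE is TGACGTCA, the NRF1 site GCATGCGC and the YY1 site AAGATGGCG. All were searched on both strands, and the last 4 have no match in the sequences printed. In EIF4G2 a CCAAT on the opposite strand shares letters with a GC box.

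EIF3B and EIF2AK3 are shown because they had the most tags. For EIF3B, the stretches around 2 of the 3 maxima of the signal are given. No motif match stood in either printed stretch, and matches farther from the maxima are described below.
EIF3B, maximum nearest the TSS, chr7:2394355-2394414, plus strand: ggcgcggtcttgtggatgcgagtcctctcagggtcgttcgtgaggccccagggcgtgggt
EIF3B, middle maximum, chr7:2394003-2394062, plus strand: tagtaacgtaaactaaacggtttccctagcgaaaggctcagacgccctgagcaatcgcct
EIF2AK3, chr2:88927148-88927348, minus strand: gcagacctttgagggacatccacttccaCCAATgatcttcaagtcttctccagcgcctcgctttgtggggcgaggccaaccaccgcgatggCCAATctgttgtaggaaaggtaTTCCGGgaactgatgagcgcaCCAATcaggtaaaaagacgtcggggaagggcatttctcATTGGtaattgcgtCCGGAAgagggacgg

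The next sequences are those of members with CCAAT close to the summit.
EIF5, chr14:103800451-103800510, plus strand: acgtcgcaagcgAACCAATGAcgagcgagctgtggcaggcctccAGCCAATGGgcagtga
EIF1, chr17:39845666-39845725, plus strand: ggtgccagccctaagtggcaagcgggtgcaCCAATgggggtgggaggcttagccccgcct
EIF4G2, chr11:10830546-10830605, minus strand: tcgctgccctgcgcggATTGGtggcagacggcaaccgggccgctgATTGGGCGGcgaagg
EIF5A2, chr3:170626515-170626574, minus strand: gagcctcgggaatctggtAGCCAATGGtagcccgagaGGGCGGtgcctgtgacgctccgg

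EIF4H is shown as an example of an E-box beside the summit.
EIF4H, chr7:73588448-73588507, plus strand: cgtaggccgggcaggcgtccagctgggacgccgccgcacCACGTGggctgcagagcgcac

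Most EIF genes had a SOX9 peak at a promoter in HT-29 cells. Of the 56 genes, 40 had one (71.4%, Wilson 95% interval 58.5% to 81.6%), while 44.9% of all protein-coding genes had one. Since the peaks are part of how the EIF genes were taken up, the share is a description only. EIF promoters were also mostly rich in CpG: the ratio of observed to expected CpG around the TSS was over 0.6 in 54 of the 56, or 96.4%, and in 68.0% of all protein-coding genes. Among genes with such a ratio, 70.4% of the EIF genes and 59.5% of all genes had a promoter peak. The part of CpG content in the share was not tested.

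The EIF peaks covered a wide range of strength. Their median was 71.5 tags (quartiles 40 and 104), and the median over all genes with a promoter peak was 59 tags (quartiles 41 and 86). Above the latter median lay 24 of the 40 EIF peaks. More than 100 tags were found in 12 EIF peaks (30%) and in 17.7% of all genes with a peak, and more than 200 tags in 2 EIF peaks (5%) and 3.58%. The fold enrichment, the ratio of ChIP tags to those expected from the input nearby, had medians of 9.64 for the EIF genes and 10.1 for all genes. The EIF median was thus above that of all genes for tags and below it for fold enrichment.

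**Figure D1:**
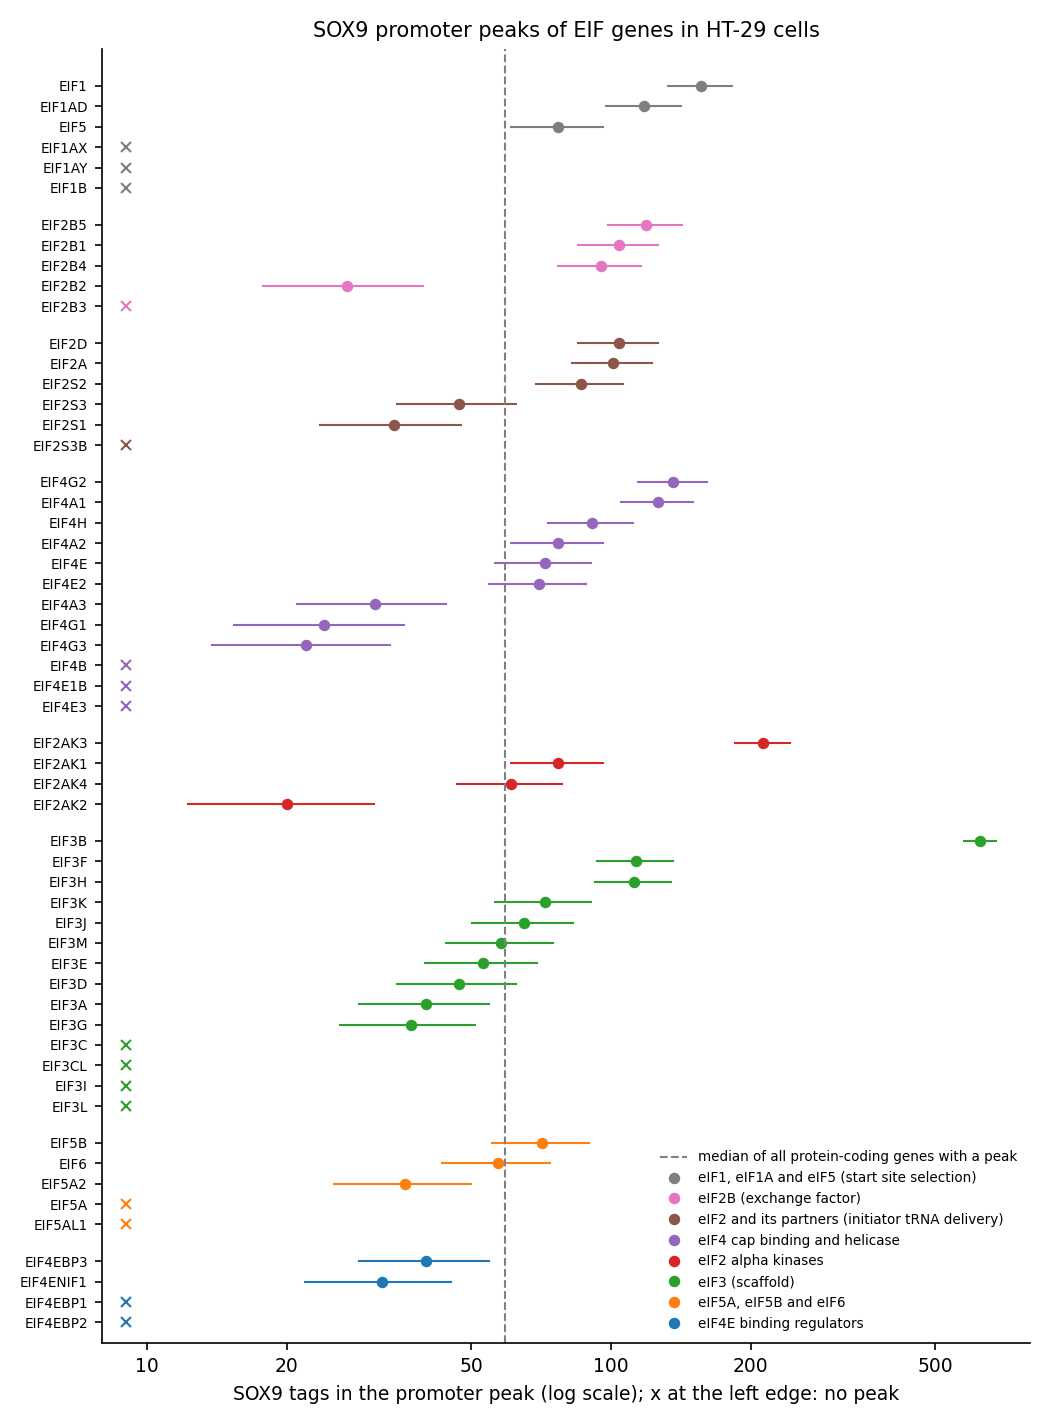
SOX9 tags in the promoter peak of each EIF gene (log scale), by role, with exact Poisson 95% intervals that cover counting error only. Crosses at the left edge mark the 16 genes without a peak, and the dashed line is the median of 59 tags over all genes with a peak. EIF3B, at 624 tags, stands far to the right of the others.

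At the TSS itself the SOX9 library mostly exceeded the input. Signal here means tags per bin of 32 nt, with each tag lengthened to 150 bp, averaged over the bins within 250 bp of the TSS of the representative transcript. The ratio adds a pseudocount of 1 to both libraries, so it understates the difference of low genes. The ratio was at least 2 in 43 of the 56 EIF genes (76.8%), while 49.6% of all protein-coding genes reached it. The median SOX9 signal at EIF TSSs was 11.5 tags per bin, and the median input signal was 3.17. Over all genes these medians were 4.73 and 1.53, so the EIF TSSs stood higher in the input as well. The median log2 ratio was 1.52 at EIF TSSs and 0.98 at all TSSs.

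Averaged over the 56 EIF genes, the SOX9 signal was highest 80 bp upstream of the TSS, at 21.6 tags per bin, where the input was 4.02. Without EIF3B the SOX9 mean at that place was 19.1 tags per bin. Over all genes the highest values were 10.7 and 2.17, also 80 bp upstream. Farther than 1500 bp from the TSS both libraries of the EIF genes were close to each other, at 1.05 and 0.949 tags per bin.

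**Figure D2:**
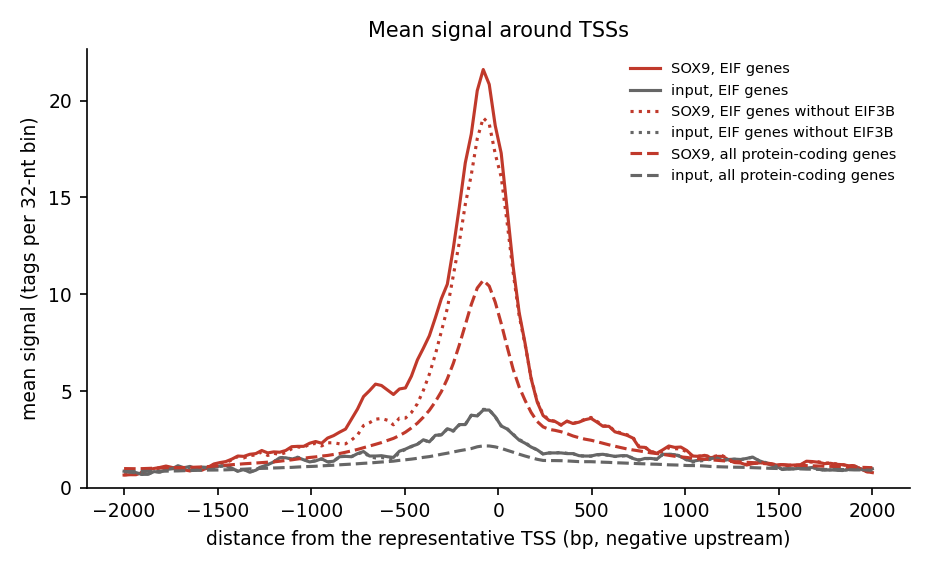
Mean SOX9 (red) and input (grey) signal in tags per bin against distance from the representative TSS, for the EIF genes (solid), the EIF genes without EIF3B (dotted) and all protein-coding genes (dashed). Each SOX9 curve has its highest point 80 bp upstream, and EIF3B makes up part of the shoulder near −653 bp.

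The summits of EIF peaks lay mostly just upstream of a TSS. Their median position was −62.5 bp from the nearest TSS of the gene, with quartiles of −153 and −2.5 bp, and over all genes the median was −49 bp. Of the 40 summits, 32 (80%) lay upstream of or on the TSS, a side held by 74.7% over all genes, and 23 (57.5%) lay within 100 bp, where 61.0% over all genes did. Relative to the representative transcript, 31 summits were upstream, 5 in the 5′-UTR, 2 in intron 1, 1 in a later intron and 1 in the coding part of an exon. The limit of 1 kb fell in a gap: the farthest summit inside it was that of EIF5B at −847 bp, and the nearest outside were those of EIF2B3 at 1732 bp, with 16 tags, and EIF4E1B at 2644 bp.

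EIF3B, a core subunit of eIF3 that helps to hold the other subunits, had by far the strongest peak of the group. On chromosome 7, its peak held 624 tags (576 to 675, exact Poisson 95% interval) at a fold enrichment of 63.0, and only 2 protein-coding genes had a promoter peak with more tags. At the TSS the SOX9 signal was 76.5 tags per bin and the input signal 2.56. This ratio of 21.8 ranked 15th among all protein-coding genes. The interval was 1887 bp wide and held 3 maxima, at −653, −429 and −77 bp from the TSS, with SOX9 signals of 105, 131 and 159 tags per bin. Between them the signal fell no lower than 79 tags per bin, whereas the highest input value in the interval was 7. The gene, annotated at 2393721 to 2420380 on the plus strand, has further transcripts that start upstream of the representative TSS. The TSS of SNX8 on the opposite strand was 509 bp away, within the same interval, so the tags cannot be given to either gene alone. Of the motifs, only a GC box lay within 100 bp of the summit. Farther from the summit, the interval held a CCAAT at 753 bp, an ETS core, an E-box and more GC boxes. The ETS core stood at −338.5 bp and the E-box at −741.5 bp from the TSS. Both lay nearer to an upstream maximum than to the summit.

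The eIF2 alpha kinases sense different stresses, and all 4 of their genes had a promoter peak. EIF2AK3 encodes PERK, the kinase of the endoplasmic reticulum stress response. Its peak held 213 tags (185 to 244) and was enriched 36.7-fold, and the summit lay 266 bp upstream of the TSS. A TSS of the lncRNA EIF2AK3-DT was nearer to the summit, at 153 bp, so the tags cannot be given to EIF2AK3 alone. The SOX9 signal at the TSS of EIF2AK3 was 34.6 tags per bin and the input 2.06, a ratio of 11.6 and the highest among the kinases. In the sequence above, 4 CCAAT matches and 2 ETS cores stood within 100 bp of this summit, and the nearest CCAAT was 7 bp from it. No Motif 1 match was among those 4. A peak of 72 tags near RPIA, within 1 kb of another annotated TSS of EIF2AK3, lay beside the gene as well, and one of 14 tags lay inside it.

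The other kinase genes had weaker peaks. EIF2AK1, the kinase that responds to lack of haem, had 77 tags with the summit 3 bp upstream of a TSS, and its signals were 16.9 tags per bin for SOX9 and 5.87 for the input. EIF2AK4, which encodes the amino acid sensor GCN2, had 61 tags at an internal TSS and 45 tags at a second peak 98 bp inside the representative transcript. The ratio at the representative TSS, 2.07, was the lowest among the kinases. EIF2AK2, which encodes the double-stranded RNA sensor PKR, had the fewest tags of all 40 peaks, 20 (12.2 to 30.9). That peak lay at an internal TSS, 8462 bp inside the representative transcript, and it was 1 of the 2 EIF peaks with Motif 2 within 100 bp, the other being that of EIF4G1.

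Of the 6 genes for eIF2 and factors that deliver initiator tRNA, 5 had a promoter peak, with a median of 86 tags. EIF2D, a delivery factor that works without eIF2, had 104 tags and the highest ratio here, 5.87, from 28 tags per bin for SOX9 and 3.94 for the input. EIF2A, a separate factor of a similar kind, had 101 tags, a SOX9 signal of 17.9 and an input signal of 4.31. The SERP1 TSS on the opposite strand lay 286 bp from that of EIF2A. The beta subunit gene EIF2S2 had 86 tags at a fold enrichment of 4.52, the lowest of the EIF peaks. The input in the 1 Mb around EIF2S2 was 1.77 times the autosomal median, and its part in the tag count was not tested. The gamma subunit gene EIF2S3 had 47 tags.

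EIF2S1, which encodes the alpha subunit that the kinases phosphorylate, was the exception among the genes with a peak. Its peak of 34 tags lay 453 bp upstream, 43 bp from the TSS of ATP6V1D. At the TSS of EIF2S1 the signals were 4.25 tags per bin for SOX9 and 2.94 for the input. The ratio of 1.33 was the only one under 2 among the 40. EIF2S3B, an intronless relative of EIF2S3, had no peak, with 2 tags per bin for SOX9 and 0.188 for the input.

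The eIF2B genes encode the exchange factor that the phosphorylated eIF2 blocks, and 4 of 5 had a promoter peak. EIF2B5, for the catalytic epsilon subunit, had 119 tags with the summit 1 bp upstream of the TSS, and signals of 15.9 for SOX9 and 3.63 for the input. EIF2B1 had 104 tags and the highest ratio of these genes, 5.35, from 28.8 and 4.56 tags per bin. Its summit was 1 bp from a TSS of GTF2H3. EIF2B4 had 95 tags at a summit 6 bp from a TSS of SNX17, and EIF2B2 had 27 tags. These shared starts mean that the tags of EIF2B1 and EIF2B4 also count for the partner gene.

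EIF2B3 had no promoter peak, although its SOX9 signal was not low. The signal of 14 tags per bin was above the median of all EIF genes, and the input of 6.13 gave a ratio of 2.11, the lowest of the eIF2B genes. These signals correspond to 44.8 SOX9 tags (32.7 to 59.98) and 19.6 input tags (11.9 to 30.4) within 250 bp of the TSS. The intervals cover counting error only, the difference was not tested, and no binding is read from it.

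The eIF3 genes had peaks in 10 of 14 cases, and EIF3B stood alone among them. EIF3F had 113 tags and a fold enrichment of 23.8, with 30.2 tags per bin for SOX9 and 2.93 for the input, a ratio of 7.93. EIF3H had 112 tags and a fold enrichment of 6.68, with 27.7 and 7.44 tags per bin. The input in the 1 Mb around EIF3H, on chromosome 8, was 3.21 times the autosomal median, the highest of the EIF genes, and its part in the tag count was not tested. It was over 1.5 times that median at 7 EIF genes with a peak: EIF1AD, EIF2AK4, EIF2S2, EIF3H, EIF3K, EIF5A2 and EIF6. The remaining peaks of the complex held 72 tags in EIF3K, 65 in EIF3J, 58 in EIF3M, 53 in EIF3E, 47 in EIF3D, 40 in EIF3A and 37 in EIF3G. EIF3G reached a ratio of 5.08 with its 37 tags, since the input signal there was only 1.6 tags per bin.

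Some of these eIF3 peaks sat at shared or distant starts. The strongest peak counted for EIF3E lay 4 bp from a TSS of EMC2, at a far upstream start of an EIF3E transcript, and a second peak of 44 tags lay 54 bp upstream of the representative TSS of EIF3E. EIF3J had a second peak of 28 tags that was 5 bp from the TSS of the lncRNA EIF3J-DT. The summit of EIF3A was nearest to an lncRNA start, and EIF3K had MAP4K1 306 bp away on the opposite strand.

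The other 4 eIF3 genes had no promoter peak. EIF3I had signals of 7.81 tags per bin for SOX9 and 2.94 for the input, and EIF3L had 4.73 and 2.80. Both have a neighbour on the opposite strand close by, TMEM234 at 48 bp from EIF3I and ANKRD54 at 92 bp from EIF3L. EIF3C and EIF3CL, nearly identical copies on chromosome 16, were at 0 in both libraries. The 501 bases around their TSSs were the same, and 0% of the 50-base words there occurred once in the genome. Since only uniquely aligned reads were kept, SOX9 binding at EIF3C and EIF3CL could not be measured.

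Among the eIF4 genes, grouped under cap binding and unwinding, 9 of 12 had a promoter peak. EIF4A3 is counted among them, but no role at the cap is claimed for it. EIF4A1, which encodes the main helicase, had 126 tags 135 bp upstream and a fold enrichment of 25.4, with 34.4 tags per bin for SOX9 and 4.07 for the input. Its ratio of 6.99 was the highest of these genes, and a second peak of 19 tags lay within 1 kb of another TSS of the gene. Around its summit, 3 CCAAT matches, 1 of them a Motif 1, and 3 GC boxes stood within 100 bp. EIF4G2, for a scaffold protein that does not bind eIF4E, had 136 tags, with 26 and 4.44 tags per bin. The other peaks held 91 tags in EIF4H, 77 in EIF4A2, 72 in the cap-binding protein gene EIF4E, 70 in EIF4E2, 31 in EIF4A3, 24 in EIF4G1 and 22 in EIF4G3. The main scaffold gene EIF4G1 thus had few tags, but its input signal was also low, 0.875 tags per bin, and its ratio was 3.97.

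Of the eIF4 genes without a peak, EIF4B came closest. Its signals were 8 tags per bin for SOX9 and 3.53 for the input, a ratio of 1.98. EIF4E3 was near the bottom with 1.19 and 0.313 tags per bin. EIF4E1B, with SNCB on the opposite strand 119 bp away, had 0.333 tags per bin for SOX9 and 0.533 for the input, the lowest ratio of these genes at 0.870.

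**Figure D3:**
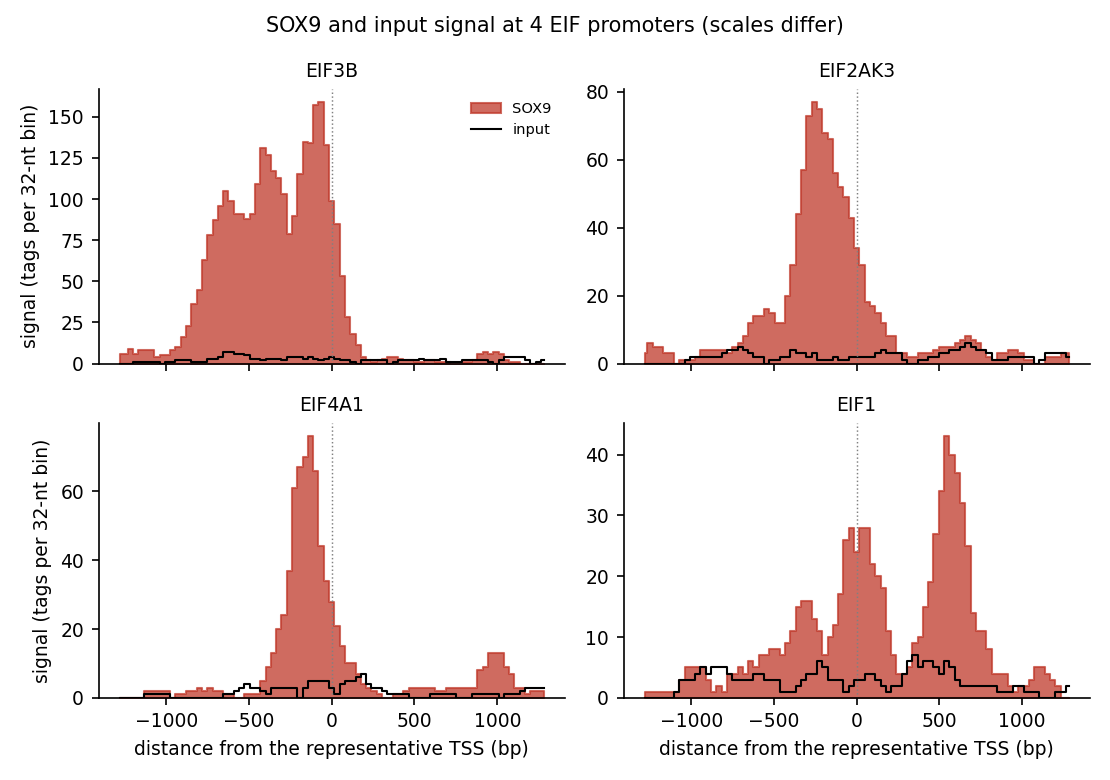
SOX9 (red) and input (black) signal in tags per bin against distance from the representative TSS of EIF3B, EIF2AK3, EIF4A1 and EIF1, each with its own vertical scale. EIF3B has 3 maxima upstream, EIF2AK3 and EIF4A1 have 1 each, and in EIF1 the highest SOX9 value, 43 tags per bin, lies inside the transcript.

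Genes grouped under start codon selection had peaks in 3 of 6 cases. EIF1AD is counted among them, but no role in that step is claimed for it. EIF1 had 156 tags (132 to 182), the most after EIF3B and EIF2AK3, at a fold enrichment of 13.9. Its summit lay in intron 1 of the representative transcript, 559 bp inside, and 459 bp upstream of an internal TSS. At the representative TSS the signals were 17.9 tags per bin for SOX9 and 3 for the input, a ratio of 4.73. EIF5, which activates the GTPase of eIF2, had 77 tags and a fold enrichment of 27.3, with 18.8 and 1.5 tags per bin. EIF5 thus had fewer tags than EIF1 but a higher ratio, 7.90, and its sequence above holds 2 Motif 1 matches, 14 and 18 bp from the summit.

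EIF1AD, a gene for an eIF1A domain protein, had 118 tags, with 22 tags per bin for SOX9 and 5.13 for the input. The summit was nearer to the TSS of BANF1, which starts 71 bp from EIF1AD on the opposite strand. EIF1B had no peak, with 7.06 and 4 tags per bin, and neither had EIF1AX, with 7.67 and 4.53 tags per bin and a ratio of 1.57. The Y-linked EIF1AY is given without values, and its lack of a peak is not read as a lack of binding.

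The regulators of eIF4E had weak peaks or none. EIF4EBP3 had 40 tags with 10.6 tags per bin for SOX9 and 3 for the input, and its ratio of 2.90 was the highest of the 4. EIF4ENIF1, for the protein that carries eIF4E into the nucleus, had 32 tags, 12 bp from a TSS of SFI1 and at −6634 bp from its own representative start. EIF4EBP1 and EIF4EBP2, the inhibitors released by mTOR signalling, had no peak. EIF4EBP1 had signals of 3 and 0.6 tags per bin, and EIF4EBP2 had 7.94 and 3.69, the lowest ratio of these genes at 1.91.

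Of the late factors, EIF5B, EIF6 and EIF5A2 had peaks. EIF6, for a protein that keeps the subunits apart, had 57 tags, 15.5 tags per bin for SOX9 and 3.69 for the input, and the highest ratio of these genes, 3.52. The peak counted for EIF5B had 71 tags near TXNDC9, and a further peak of 56 tags lay 88 bp upstream of a TSS of EIF5B itself. EIF5A2 had 36 tags with a Motif 1 beside the summit. EIF5A, the widely expressed form of this hypusine-bearing factor, had no peak, with 4.38 and 3.56 tags per bin and a ratio of 1.18. The intronless copy EIF5AL1 was at 0 in the SOX9 library and 0.313 in the input, and only 24.8% of the 50-base words around its TSS were unique.

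A protein-coding TSS on the opposite strand lay within 1 kb of the representative TSS in 11 EIF genes (19.6%, 13.8% of all protein-coding genes). Of these 11, 8 had a promoter peak, as did 71.4% of all EIF genes. The matching share over all genes with such a neighbour is not given. An lncRNA TSS alone lay within this distance on the opposite strand in 13 EIF genes (23.2%, 13.9% of all). The pairs not yet named include EIF4E2 with TIGD1 at 132 bp. The genes with an lncRNA start only were EIF1AY, EIF1B, EIF2AK3, EIF2B5, EIF3A, EIF3J, EIF4A2, EIF4E, EIF4ENIF1, EIF4G2, EIF4G3, EIF5A2 and EIF6. In 10 of the 40 peaks the summit was nearer to the TSS of another gene than to any of the EIF gene (25%), and the share was 21.9% over all genes with a promoter peak. For the 30 other peaks the median was 72 tags.

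Beyond the promoters, 22 further peaks lay in 17 of the EIF genes or within 10 kb of them. The matching share over all protein-coding genes is not given, so the counts show nothing particular to EIF genes. The 17 genes were EIF2AK3, EIF2AK4, EIF2B3, EIF2B4, EIF3A, EIF3I, EIF3K, EIF3L, EIF4A1, EIF4B, EIF4E1B, EIF4E2, EIF4EBP3, EIF4G1, EIF4G2, EIF5A and EIF6. The strongest of these, with 74 tags, was 41 bp from a TSS of GTF3C2, beside EIF2B4. One of 73 tags near EIF3K was 5006 bp from its nearest EIF3K start. EIF6 had a peak of 62 tags and EIF2AK4 one of 61 tags beside it, the latter 6 bp from an lncRNA start.

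The CCAAT box was about as frequent at EIF summits as at all promoter summits. It stood within 100 bp in 12 of the 40 (30%) and in 31.9% of the 7692 promoter peaks of all protein-coding genes. Those 12 were EIF1, EIF2A, EIF2AK3, EIF2B2, EIF2B4, EIF3E (at its peak near EMC2), EIF3K, EIF3M, EIF4A1, EIF4G2, EIF5 and EIF5A2. Their median was 86 tags, and that of the other EIF peaks was 67.5. Motif 1 was found in 5 (12.5%, 15.8% of all promoter peaks) and Motif 2 in 2 (5%, 7.25%). For both, the medians ran the other way than for CCAAT. They were 53 tags with Motif 1 and 72 without, and 22 with Motif 2 and 72 without. These rest on 5 and 2 peaks, and over whole peak intervals the order turned. There the medians were 77 tags with Motif 1 and 70.5 without, and 77 with Motif 2 and 71 without.

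The ETS core and the E-box took a larger share of the EIF peaks than of all promoter peaks. The ETS core was found in 20 of 40 (50%), and in 25.8% of all promoter peaks. The E-box, the site bound by MYC among others, was found in 8 (20%), and in 8.39% of all. Its holders were EIF3A, EIF3E (at its peak near EMC2), EIF3K, EIF4E, EIF4EBP3, EIF4G1, EIF4H and EIF5A2. None of these was among the 12 EIF peaks with most tags, but this holds only near the summit. Over whole peak intervals the E-box stood in 15 EIF peaks, EIF3B, EIF4A1, EIF2B5, EIF3F and EIF3H among them. The median was then 72 tags with the E-box and 71 without. The GC box stood in 23 (57.5%, 62.9% of all), the YY1 site in 3 (7.5%, 3.37%) and the CRE in EIF3H alone (2.5%, 2.68%). No EIF peak held the NRF1 site, found in 2.83% of all, and EIF2AK4 and EIF4A3 held none of the 9 motifs, like 14.3% of all promoter peaks. Over the whole peak intervals, CCAAT stood in 67.5% of the EIF peaks and 62.8% of all, and the GC box in 92.5% and 90.4%, so for both the order of the shares turned. So it did for Motif 2 within 50 bp of the summit, with 5% and 3.77%. A match describes the letters present and is not evidence that a factor was bound.

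**Figure D4:**
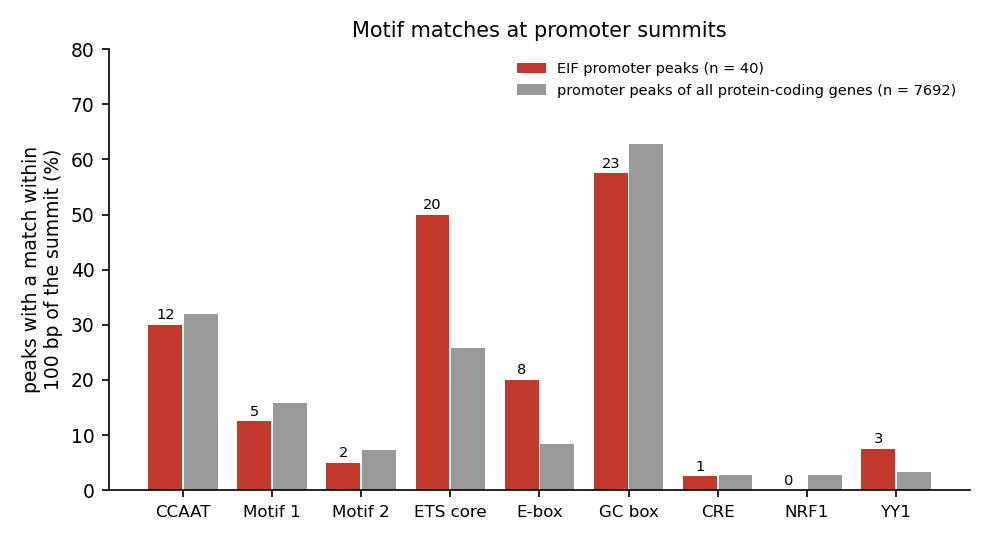
Share of promoter peaks with a match to each motif within 100 bp of the summit, in percent, for the 40 EIF peaks (red, with counts above the bars) and the 7692 promoter peaks of all protein-coding genes (grey). The red bar is the taller for the ETS core, the E-box and YY1, and the shorter for the other 6 motifs, an order that turns for CCAAT and the GC box over whole intervals and for Motif 2 within 50 bp.

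Other genes of translation had promoter peaks at shares like or above that of the EIF genes. Of 26 further genes of initiation and its control, 22 had one, with a median of 62.5 tags, led by BZW2 with 266 tags, MLST8, a subunit of mTOR complexes, with 183, and BZW1 with 157. Of 14 genes listed for elongation and release 10 had one (median 90 tags), with 229 tags in EEF1D, 161 in DOHH and 117 in GSPT1. That list includes DOHH, DHPS and EEF2K, which encode enzymes that modify factors and are not elongation or release factors themselves. Of 20 cytosolic aminoacyl-tRNA synthetase genes 18 had one (median 57 tags), led by GARS1 with 118, TARS1 with 113 and YARS1 with 99. Of 88 cytosolic ribosomal protein genes 72 had one (median 62 tags), with 203 tags in RPL35, 190 in RPL19 and 181 in RPL22. The highest value in these lists was below the 624 tags of EIF3B.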

How the data were processed

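SOX9 ChIP and input DNA of HT-29 cells were sequenced, 1 library each. The authors aligned 50-nt reads to hg19 with BWA, kept unique alignments and set both libraries to the same depth. They called 17847 peaks with MACS 1.3.7.1 at a p-value cut-off of 1e-07. In the deposited peak table, the tags are a count of ChIP reads, the score is −10 times log10 of the p-value, the fold enrichment is a ratio to the local input, and the FDR is a percent. The deposited signal counts tags, lengthened to 150 bp, in bins of 32 nt, without further scaling, and 1 tag covers 5 bins.

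From these files, summits were assigned to TSSs of GENCODE release 44 on hg19, and TSS signals, motifs, CpG and unique 50-base words were computed with Python 3.11.15, NumPy 2.4.6, pandas 2.3.3 and SciPy 1.17.1. The representative transcript is 1 per gene. The assignment and motif search were tested on simulated data. No test was possible with 1 library per condition. The Poisson 95% intervals cover counting error only. The Wilson 95% interval treats the genes as independent draws, which a fixed list of genes is not. The genes, the lists and the rule for naming were chosen with earlier results of these data known. By that rule every EIF gene is named, with values for the 12 with most tags, those without a peak except the Y-linked EIF1AY, and the highest and lowest ratio of each group; of the other lists, up to 3 genes with most tags. Sequences longer than 60 bases, the maxima in EIF3B and the means without EIF3B were chosen after seeing the data. Alternatives covered distance limits, transcript sets, peak filters, signal windows, pseudocounts and motif windows.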

Additional observations from a re-analysis of the deposited data

How the results depend on the processing

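Of 57 alternative values computed, 43 stayed close to the reported ones and 14 moved. For counts the band was wide: a MACS score of at least 100 left 31 EIF genes with a promoter peak and was taken as close. That filter left 35.9% of all genes. A median was taken as close if it lay within a 95% interval of the reported median. Requiring a fold enrichment of at least 10 left 20 EIF genes with a promoter peak, and 23.9% of all genes. With the signal taken within 500 bp of the TSS, the median log2 ratio was 1.28 at EIF TSSs and 0.82 over all genes. Separately, with the signal within 250 bp, a ratio of at least 4 was reached by 13 EIF genes and 15.1% of all. Over whole peak intervals CCAAT was found in 27 EIF peaks (67.5%, 62.8% of all promoter peaks), Motif 1 in 8 (20%, 22.8%), Motif 2 in 13 (32.5%, 36.1%), the E-box in 15 (37.5%, 22.998%), the GC box in 37 (92.5%, 90.4%) and the NRF1 site in 2 (5%, 7.92%). For CCAAT and the GC box the EIF share thus went from below to above that of all promoter peaks. Within 50 bp the ETS core was found in 13 (32.5%, 15.6%), the GC box in 14 (35%, 40.7%) and the CRE in 0 (0%, 1.61%). The count for Motif 2 stayed at 2 within 50 bp, but the share changed side, 5% against 3.77%. With the peak nearest to a TSS in place of the one with most tags, Motif 1 was found in 3 (15.6% of all) and the NRF1 site in 1 (2.86% of all). The causes were not tested. Alternatives chosen after seeing the data were restrictions to genes with unique sequence, to CpG-rich starts, to summits nearest to an EIF TSS, and to chromosomes other than 8 and 20. No paired analysis was possible because there is 1 library of each kind. Nor could a replicate be left out. What a deeper library would add was not tested.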
